A study of Mus musculus with 12 samples.

Results

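A set of 9 genes that encode receptor chains for myeloid cytokines were followed through the series: Csf2rb, Csf2rb2, Il3ra, Csf2ra, Csf3r, Csf1r, Il6st, Il6ra and Il1r1. They were taken by name from the deposited gene table, where all 9 were found among 40481 genes, and all 9 were among the 14271 genes tested. The study cultured hematopoietic stem cells (HSCs), the self-renewing cells at the root of the blood system, for 3 days in the HSC expansion conditions of Wilkinson and colleagues with 1 µg/mL doxycycline. They had been sorted from fetal livers (E14.5) or from the marrow of mice aged 8 weeks, and were either wild type (WT) or carried the ETV6-RUNX1 allele (iE/R in the design text). ETV6-RUNX1 is a fusion of 2 blood transcription factors found in childhood B-cell leukemia. Each of the 4 groups held 3 libraries, and the WT groups received doxycycline too. The promoter that drives the fusion, the number of animals behind a library and the sort gates are not given in the sources used here. The labels also do not say whether replicates came from separate animals or cultures, so p-values measure the spread between these samples, which may be technical.

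Cytokine receptors of this kind are assembled from chains. IL-3, GM-CSF and IL-5 each bind a private alpha chain (Il3ra and Csf2ra encode those for IL-3 and GM-CSF), which then pairs with a shared signalling beta chain, encoded by Csf2rb. Mice have an additional beta chain, encoded by Csf2rb2, that serves IL-3 only. The receptors for G-CSF (Csf3r) and M-CSF (Csf1r) pair with themselves, the former using JAK kinases and the latter being a tyrosine kinase in its own right. IL-6 binds Il6ra, and the complex recruits gp130, encoded by Il6st, which the receptors for leukemia inhibitory factor (LIF) and oncostatin M also use. Il1r1 belongs to a different family, signals through MyD88 and IRAK kinases, and gives HSCs a route to respond to IL-1 in inflammation.

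The beta chain genes are neighbours on chromosome 15 in build GRCm38. Csf2rb (ENSMUSG00000071713) lies on the plus strand at chr15:78325752-78353847 and Csf2rb2 (ENSMUSG00000071714) on the minus strand at chr15:78282507-78305721. Their coding sequences are 2691 and 2637 bases long in the GENCODE M21 annotation and were identical at 95.2% of 2631 aligned bases. The longest identical stretch is shown because a read falling wholly inside it cannot be assigned to either gene. It is 242 bases of exon 14, at chr15:78348577-78348818 (plus strand) in Csf2rb and at chr15:78284630-78284871 (minus strand) in Csf2rb2.
Csf2rb and Csf2rb2: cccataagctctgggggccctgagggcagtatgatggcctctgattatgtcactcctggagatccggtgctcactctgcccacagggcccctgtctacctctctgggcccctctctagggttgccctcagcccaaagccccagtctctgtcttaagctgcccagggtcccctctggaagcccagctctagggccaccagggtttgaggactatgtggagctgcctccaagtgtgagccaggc
Of all 100-base stretches of their exons, 4.63% of those in Csf2rb and 6.82% of those in Csf2rb2 occurred in the other gene. How reads with several matches were counted is not given in the sources used here, and these shares of sequence do not bound the error of the counts. An equal share of misassigned reads would weigh more in Csf2rb2, the less abundant gene of the pair (means of 11.7 against 101 CPM in WT fetal liver).

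Promoter windows of 250 bases before the transcription start were read from RefSeq (GRCm38.p6) for 7 of the 9 genes, in 8 windows. By the GENCODE M21 gene positions, the windows of Il3ra, Csf3r and Csf2ra lay partly inside the gene. The Il1r1 window at chr1:40266336-40266585 lay wholly inside it. In them 6 motifs were searched on both strands: TGTGGT and TGCGGT (RUNX), GAGGAA (the PU.1 type of ETS site), TTCNNNGAA (STAT) and TTNNGCAAT (C/EBP), with the interferon-stimulated response element, GAAA repeated after any 2 bases. Csf2rb and Csf1r, both among the largest changes in fetal liver, had no window, so their promoters were not searched. Neither RUNX sequence, nor the C/EBP or the interferon sequence, occurred in any of the 8 windows. Among all 32817 RefSeq promoter windows of that length, 14.0% held TGTGGT, 5.09% TGCGGT, 1.93% the C/EBP and 2.97% the interferon sequence. At such shares 8 windows are too few to show that receptor promoters lack these sequences. GAGGAA occurred in the windows of Csf2rb2, Il6ra, Csf3r and Csf2ra, against 23.3% of all windows. The STAT sequence occurred in the window of Csf2rb2, against 7.01% of all windows. The windows of 3 genes that changed in fetal liver are shown. They lie at chr15:78305722-78305971 (minus strand), chr3:89913197-89913446 (minus strand) and chr13:112463820-112464069 (plus strand), and their overlap with other transcripts was not tested. Capitals mark a match to GAGGAA, on either strand, or to TTCNNNGAA, and the last base printed is next to the start site.
Csf2rb2: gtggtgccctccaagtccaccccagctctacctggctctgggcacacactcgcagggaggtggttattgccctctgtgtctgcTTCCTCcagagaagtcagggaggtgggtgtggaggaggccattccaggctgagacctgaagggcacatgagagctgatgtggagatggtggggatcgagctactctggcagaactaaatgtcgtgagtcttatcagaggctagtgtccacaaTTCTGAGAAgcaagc
Il6ra: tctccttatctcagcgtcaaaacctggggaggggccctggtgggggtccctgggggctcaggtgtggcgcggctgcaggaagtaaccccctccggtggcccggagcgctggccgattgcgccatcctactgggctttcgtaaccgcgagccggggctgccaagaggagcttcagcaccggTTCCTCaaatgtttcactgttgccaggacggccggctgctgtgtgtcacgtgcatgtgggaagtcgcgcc
Il6st: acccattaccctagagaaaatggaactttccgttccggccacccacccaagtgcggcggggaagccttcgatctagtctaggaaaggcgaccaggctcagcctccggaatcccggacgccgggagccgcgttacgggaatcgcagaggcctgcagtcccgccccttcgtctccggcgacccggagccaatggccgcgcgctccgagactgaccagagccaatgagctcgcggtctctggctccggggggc
The Csf2rb2 window held a single GAGGAA match and the STAT match, the latter beginning 15 bases before the start. The Il6ra window held 1 GAGGAA match and the Il6st window held no match. These matches describe letters only and were not tested as binding sites.

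The remaining genes lie apart from each other. Il3ra (ENSMUSG00000068758) is at chr14:14346275-14356011, Csf2ra (ENSMUSG00000059326) at chr19:61223957-61228429 and Csf3r (ENSMUSG00000028859) at chr4:126024550-126044440. Csf1r (ENSMUSG00000024621) is at chr18:61100598-61132149, Il6st (ENSMUSG00000021756) at chr13:112464070-112510086, Il6ra (ENSMUSG00000027947) at chr3:89864059-89913196 and Il1r1 (ENSMUSG00000026072) at chr1:40225080-40317257. Csf1r shares 13.5% of its 100-base stretches with Hmgxb3 on the opposite strand, so reads of the pair can be told apart only if counting used strand, which is not stated. The level of Hmgxb3 itself ran from 7.92 to 12.9 CPM (read counts scaled to a common library total of 1 M) in the WT fetal liver libraries and from 9.52 to 10.9 CPM in the ETV6-RUNX1 ones. Il3ra and Il6ra also overlap small genes on the opposite strand (Gm48860 and Gm42809), and Il1r1 overlaps Gm38070 on its own strand.

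The libraries held 32.3 to 64.5 M reads assigned to genes, so that 3 reads corresponded to 0.0465 to 0.0928 CPM, and every receptor gene exceeded 3 reads in every library. Csf1r reached 1 CPM in 6 libraries and Il6ra in 11, while the other 7 genes did so in all 12. HSC markers were present in all groups: the 11 markers listed summed to 866 to 1696 CPM over the WT libraries and 2199 to 3330 CPM over the ETV6-RUNX1 libraries. Summed CPM of 4 Y-linked genes was 64.6 to 119 in the WT fetal liver libraries against 198 to 219.5 in the ETV6-RUNX1 ones while Xist was 51.7 to 89.3 CPM in all 6. In bone marrow the Y-linked sum was 229 to 288 CPM in WT and 268 to 389 CPM in ETV6-RUNX1 libraries. Xist there was 0.175 to 0.324 CPM in WT and 0.216 to 1.27 CPM in ETV6-RUNX1 libraries. Source and sex composition therefore cannot be told apart wherever fetal liver is compared with bone marrow, the interaction included. Within fetal liver the Y-linked sums of the genotypes did not overlap either. Genotype and a difference in sex composition therefore cannot be told apart in the fetal liver comparison. All 9 receptor genes are autosomal, and the part of sex in their differences was not tested. Tests were made with limma on log2(CPM + 1), with p-values adjusted by the Benjamini-Hochberg method over all tested genes, and a gene was called at an adjusted p under 0.05. Fold changes on that scale understate the change of low genes.

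ETV6-RUNX1 cells carried more mRNA of most of these receptors in both sources, with the largest fold changes for Csf2rb2, Csf1r and Csf2rb in fetal liver and for Il3ra, Csf2rb2 and Csf2ra in bone marrow. In fetal liver, 6 of the 9 genes were higher (Csf2rb, Csf2rb2, Il3ra, Csf1r, Il6st and Il6ra) and 1 was lower (Il1r1), where 24.8% of all tested genes were called higher and 18.3% lower. In bone marrow, 6 were higher (Csf2rb, Csf2rb2, Il3ra, Csf2ra, Csf3r and Il6st) and none was lower, where 14.4% of all tested genes were called higher. Without ETV6-RUNX1 bone marrow replicate 1 the bone marrow count was 3. A total of 4 genes, Csf2rb, Csf2rb2, Il3ra and Il6st, were called higher in both sources, against 8.84% of all tested genes. The median log2 fold change of the 9 genes was 1.37 in fetal liver and 0.75 in bone marrow, beside medians over all tested genes of 0.08 and 0.13. The balance over all genes depended on scaling: limma called 2059 higher and 704 lower in bone marrow, but 1472 and 1313 with median-of-ratios scaling, and 3544 higher and 2607 lower in fetal liver, but 2717 and 3746 with quantile scaling. Under these scalings each receptor call in the 2 genotype comparisons held except Csf3r in bone marrow with median-of-ratios scaling. With bulk RNA, a larger share of cells expressing a receptor and more RNA per cell cannot be told apart. The genotype effect itself differed between the sources, by the interaction test, for 3 genes toward fetal liver (Csf1r, Csf2rb and Csf2rb2, against 5.56% of all tested genes) and for 1 toward bone marrow (Il1r1, against 3.62%).

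**Figure D1:**
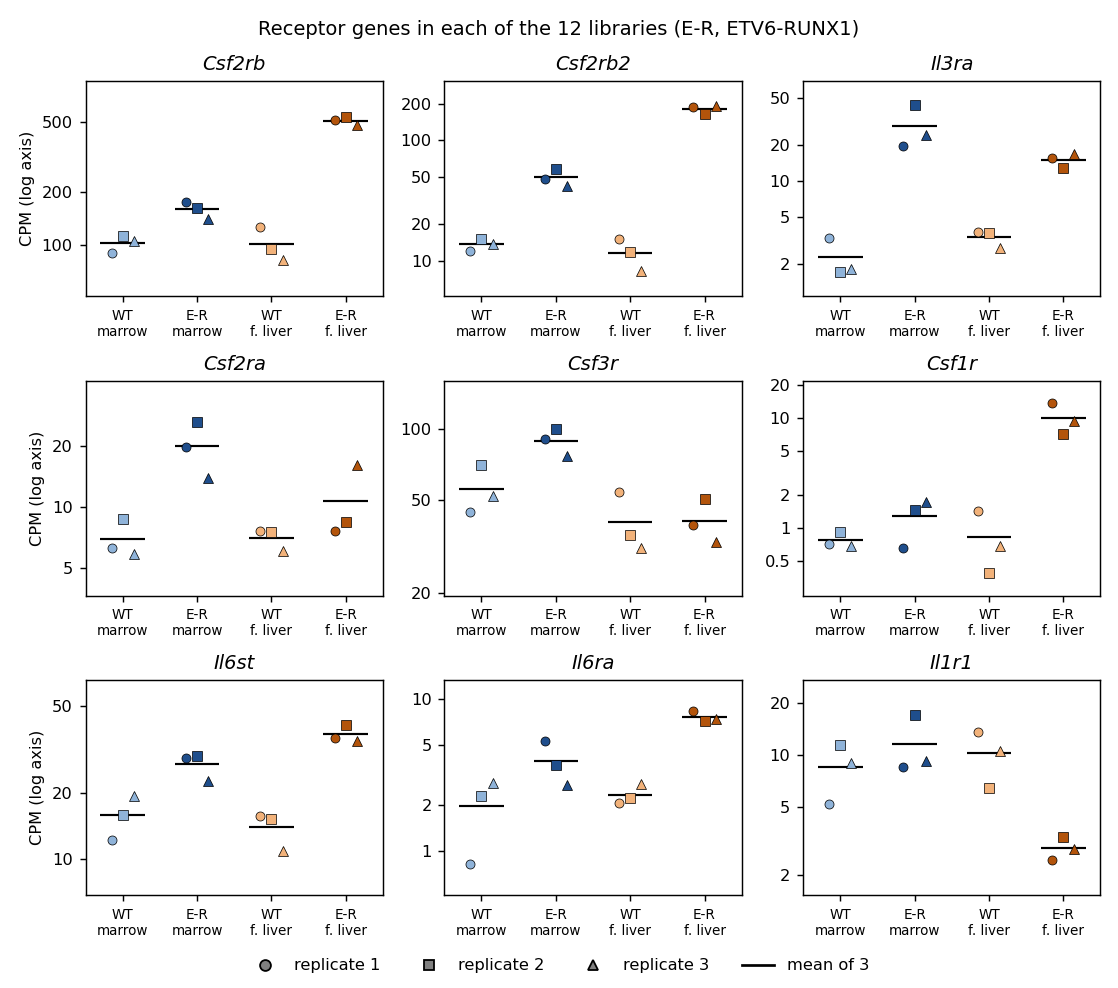
Level of each of the 9 receptor genes in CPM (log axis, own range per panel) in the 3 libraries of each group, with a bar at the mean of 3 (E-R, ETV6-RUNX1; f. liver, fetal liver). Csf2rb, Csf2rb2 and Csf1r stand highest in the ETV6-RUNX1 fetal liver libraries, Il3ra, Csf2ra and Csf3r have their highest mean in the ETV6-RUNX1 bone marrow libraries, and Il1r1 is lowest in the ETV6-RUNX1 fetal liver libraries.

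Both beta chain genes rose in each source. Csf2rb, the chain shared by IL-3, GM-CSF and IL-5, stood at 126, 94.2 and 81.5 CPM in the WT fetal liver libraries and at 514, 537 and 481 CPM in the ETV6-RUNX1 ones. Every ETV6-RUNX1 library lay far above every WT library. The mean rose from 101 ± 22.9 to 511 ± 27.8 CPM (SD, n = 3 each), 5.08-fold. In bone marrow Csf2rb measured 89.6, 111 and 104 CPM in WT and 174, 163 and 139 CPM in ETV6-RUNX1 libraries. These groups did not overlap either, but the step was smaller, 1.56-fold, with a log2 fold change of 0.64 ± 0.16 (SE; 95% interval 0.30 to 0.97; adjusted p = 0.0132, limma). Without ETV6-RUNX1 bone marrow replicate 1 the bone marrow call was lost, at an adjusted p of 0.0542 by limma. The difference between the genotype effects was 1.72 ± 0.22 on the log2 scale (adjusted p = 0.000338, limma).

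Csf2rb2, the IL-3-specific beta chain, had a larger fold change than Csf2rb in each source. It measured 15.1, 11.8 and 8.14 CPM in WT fetal liver and 189, 165 and 194 CPM in ETV6-RUNX1 fetal liver, with no overlap. Its log2 fold change was 3.89 ± 0.20 (95% interval 3.47 to 4.31; adjusted p = 6.31e-09, limma), or 15.6-fold between the means. In bone marrow the WT libraries held 12.1, 15.1 and 13.8 CPM and the ETV6-RUNX1 libraries 47.9, 57.8 and 41.9 CPM. Again no library of one genotype reached the range of the other. The bone marrow log2 fold change was 1.77 ± 0.20 (adjusted p = 0.000115, limma), and the interaction was 2.12 ± 0.28 (adjusted p = 0.000361, limma).

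Because both beta chain genes rose, the share of their summed reads that came from Csf2rb2 was followed within each library, a measure added after the gene values had been seen. It was 11.9%, 11.9% and 11.7% in WT bone marrow and 10.7%, 11.1% and 9.08% in WT fetal liver. In ETV6-RUNX1 libraries it was 21.5%, 26.2% and 23.1% in bone marrow and 26.9%, 23.5% and 28.8% in fetal liver. All 6 ETV6-RUNX1 libraries thus lay above all 6 WT libraries. The part of reads assigned to the wrong gene of the pair was not tested. The difference between genotypes was 16.1 percentage points in fetal liver and 11.8 in bone marrow, each with an exact two-sided permutation p of 0.1 (0.178 adjusted over the 16 ratio comparisons made). With 3 libraries against 3, p = 0.1 is the smallest that an exact permutation test can give.

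The alpha chains followed another order. Il3ra, the IL-3-binding chain known as CD123, measured 3.33, 1.73 and 1.82 CPM in WT bone marrow and 19.5, 43.2 and 24.5 CPM in ETV6-RUNX1 bone marrow. The ETV6-RUNX1 libraries were all higher and also more spread out, replicate 2 being the highest. The log2 fold change was 3.15 ± 0.27 (95% interval 2.57 to 3.73; adjusted p = 1.36e-05, limma), or 12.7-fold between the means, which made Il3ra the receptor gene with the largest change in bone marrow. In fetal liver the levels were 3.74, 3.63 and 2.71 CPM in WT and 15.7, 12.9 and 16.9 CPM in ETV6-RUNX1 libraries. The rise there was 1.89 ± 0.27 on the log2 scale (adjusted p = 8.64e-05, limma), or 4.51-fold. The interaction for Il3ra was -1.26 ± 0.38 and was not called (adjusted p = 0.0551, limma). That p ranged down to 0.0186 over the alternatives, 3 of 20 of which (DESeq2, and leaving out WT or ETV6-RUNX1 bone marrow replicate 1) called it.

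Csf2ra, which binds GM-CSF, rose in bone marrow. Its WT bone marrow libraries held 6.27, 8.67 and 5.83 CPM and its ETV6-RUNX1 bone marrow libraries 19.7, 26.2 and 13.8 CPM, without overlap. The log2 fold change was 1.37 ± 0.28 (95% interval 0.78 to 1.97; adjusted p = 0.00455, limma), or 2.88-fold. In fetal liver the WT libraries held 7.57, 7.46 and 6.05 CPM and the ETV6-RUNX1 libraries 7.61, 8.44 and 16.1 CPM. The groups did not overlap, but replicate 1 was just above the highest WT library and replicate 3 far above the others. The log2 fold change of 0.48 ± 0.28 (95% interval -0.11 to 1.07) was not called (adjusted p = 0.174, limma). The genotype effects were not shown to differ between sources for Csf2ra, with an interaction of -0.89 ± 0.39 (adjusted p = 0.163, limma). Without ETV6-RUNX1 fetal liver replicate 3 that interaction was called (adjusted p = 0.0465, limma).

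Set against the beta chains of the same library, the alpha chains parted between sources. Per 100 units of summed beta chain (all in reads per kb of exon), Csf2ra stood at 12.9, 16.8 and 16.3 in WT fetal liver and at 2.40, 2.71 and 5.24 in ETV6-RUNX1 fetal liver. In bone marrow it stood at 14.7, 16.3 and 11.8 in WT and at 20.1, 26.4 and 17.2 in ETV6-RUNX1 libraries. The ratio was thus lower with ETV6-RUNX1 in every fetal liver library and higher in every bone marrow library. Il3ra per 100 units of beta chain was 7.56, 3.16 and 3.55 in WT bone marrow and 19.3, 42.2 and 29.5 in ETV6-RUNX1 bone marrow. In fetal liver it was 6.15, 7.93 and 7.08 in WT and 4.79, 4.0 and 5.33 in ETV6-RUNX1 libraries. Each of these differences between genotypes had the smallest exact two-sided permutation p possible, 0.1 (0.178 adjusted over the 16 ratio comparisons).

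**Figure D2:**
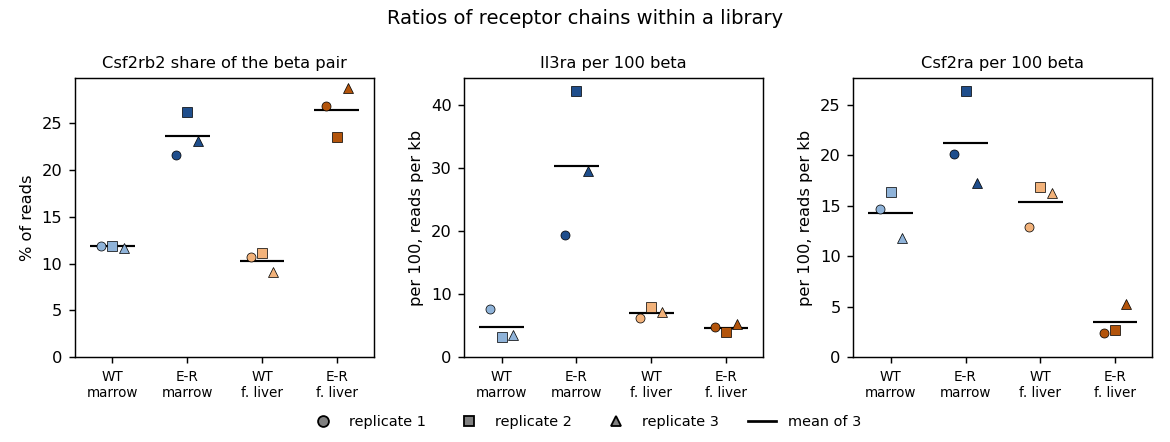
Share of Csf2rb2 in the reads of both beta chain genes (left, percent) and Il3ra and Csf2ra per 100 units of summed beta chain in reads per kb of exon (middle and right), one point per library and a bar at the mean of 3 (E-R, ETV6-RUNX1; f. liver, fetal liver). The Csf2rb2 share is above 20% in the 6 ETV6-RUNX1 libraries and below 12% in the 6 WT libraries, and both alpha chain ratios are lower in ETV6-RUNX1 fetal liver than in ETV6-RUNX1 bone marrow.

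Csf3r, the receptor for G-CSF, the main cytokine of neutrophil production, was called in bone marrow near the threshold and not in fetal liver. In bone marrow it measured 44.3, 69.98 and 51.8 CPM in WT and 90.6, 100.2 and 76.6 CPM in ETV6-RUNX1 libraries. The groups did not overlap, and the log2 fold change was 0.69 ± 0.22 (95% interval 0.22 to 1.17; adjusted p = 0.0423, limma). That call was lost in 11 of 21 alternatives, among them median-of-ratios scaling, edgeR and DESeq2, with adjusted p from 0.0265 to 0.142. In fetal liver Csf3r measured 54.1, 35.4 and 31.3 CPM in WT and 39.0, 50.1 and 32.9 CPM in ETV6-RUNX1 libraries. The fetal liver groups overlapped, and the log2 fold change was 0.03 ± 0.22 (95% interval -0.44 to 0.51; adjusted p = 0.918, limma). Its sign turned in 7 of 21 alternatives, none of which called it.

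Csf1r, the receptor for M-CSF and a defining gene of monocytes and macrophages, was low outside 1 group. WT bone marrow libraries held 0.705, 0.915 and 0.673 CPM, ETV6-RUNX1 bone marrow libraries 0.648, 1.45 and 1.70 CPM and WT fetal liver libraries 1.41, 0.385 and 0.682 CPM. ETV6-RUNX1 fetal liver libraries held 13.6, 7.13 and 9.33 CPM, all far above the other 9 libraries. The mean in fetal liver was 12.2-fold higher with ETV6-RUNX1. Its log2 fold change was 3.56 in place of 2.59 with a pseudocount of 0.1. In bone marrow the genotypes overlapped, with a log2 fold change of 0.33 ± 0.27 (95% interval -0.24 to 0.91; adjusted p = 0.400, limma). The interaction was 2.26 ± 0.38 (adjusted p = 0.00219, limma).

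Monocyte and macrophage markers were higher on balance with ETV6-RUNX1. Of 11 listed markers 8 were tested, of which 7 were called higher in fetal liver and 3 in bone marrow, with none lower. Of all tested genes, 24.8% were called higher in fetal liver and 14.4% in bone marrow. Their summed level was 258 to 320 CPM in WT and 852 to 1105 CPM in ETV6-RUNX1 fetal liver libraries, most of it from Lyz2 (means 233 and 686 CPM). In bone marrow the sums were 277 to 390 CPM in WT and 380 to 564 CPM in ETV6-RUNX1 libraries. Adgre1, which encodes the macrophage marker F4/80, and Ly6c2 were at or under 3 reads in every WT fetal liver library, and Adgre1 averaged 1.24 CPM in ETV6-RUNX1 fetal liver. Fcgr1 averaged 2.57 and 20.9 CPM in the same groups. Mean CPM was lower with ETV6-RUNX1 for Cx3cr1 (0.306 to 0.0860) and Mrc1 (1.47 to 1.25) in fetal liver. In bone marrow it was lower for Ly6c2 (1.68 to 0.362) and Cx3cr1 (0.373 to 0.0630). Neutrophil markers were lower on balance: 10 listed markers summed to 238 to 312 CPM in WT and 37.5 to 55.2 CPM in ETV6-RUNX1 fetal liver. In bone marrow they summed to 155 to 367 CPM in WT and 103 to 128 CPM in ETV6-RUNX1 libraries. Only 3 were tested, of which 2 were called lower in each source, against 18.3% of all tested genes in fetal liver and 704 of 14271 in bone marrow. Much of the sums was Prtn3 (means of 188 and 30.4 CPM in fetal liver and 191 and 113 CPM in bone marrow). Between WT bone marrow libraries S100a8 ran from 0.125 to 49.4 CPM and Ngp from 0 to 36.9 CPM. The part of these cell types in the receptor differences was not tested.

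The chains of the IL-6 receptor rose together in fetal liver. Il6st, which encodes gp130, measured 15.7, 15.3 and 10.9 CPM in WT and 35.9, 41.1 and 34.7 CPM in ETV6-RUNX1 fetal liver libraries. The groups were well apart, with a log2 fold change of 1.37 ± 0.20 (95% interval 0.95 to 1.79; adjusted p = 8.67e-05, limma), or 2.67-fold. In bone marrow Il6st measured 12.2, 15.8 and 19.5 CPM in WT and 28.8, 29.6 and 22.7 CPM in ETV6-RUNX1 libraries, without overlap. The bone marrow log2 fold change was 0.75 ± 0.20 (adjusted p = 0.0174, limma). This call was lost in 4 of 21 alternatives, with only the 6 bone marrow libraries fitted or without WT replicate 1, ETV6-RUNX1 replicate 1 or ETV6-RUNX1 replicate 2, at adjusted p up to 0.0686.

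Il6ra, the IL-6-binding chain, was the least abundant receptor gene per kb after Csf1r in the WT groups. It measured 2.08, 2.23 and 2.74 CPM in WT and 8.34, 7.18 and 7.38 CPM in ETV6-RUNX1 fetal liver libraries, again without overlap. The log2 fold change was 1.37 ± 0.27 (95% interval 0.80 to 1.94; adjusted p = 0.000967, limma), or 3.25-fold. In bone marrow it measured 0.819, 2.32 and 2.79 CPM in WT and 5.27, 3.68 and 2.72 CPM in ETV6-RUNX1 libraries, which overlapped. The bone marrow log2 fold change of 0.75 ± 0.27 (95% interval 0.18 to 1.32) was not called (adjusted p = 0.0621, limma), but was without WT or ETV6-RUNX1 bone marrow replicate 3, where the lower adjusted p was 0.0346. For neither chain was the genotype effect shown to differ between sources, with interactions of 0.62 ± 0.28 for Il6st (adjusted p = 0.173, limma) and 0.62 ± 0.38 for Il6ra (adjusted p = 0.314, limma). Il6ra per 100 Il6st, in reads per kb, was 17.0, 18.7 and 32.4 in WT and 29.8, 22.5 and 27.3 in ETV6-RUNX1 fetal liver, groups that overlapped (exact two-sided permutation p = 0.5).

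Il1r1, the signalling receptor for IL-1, was the receptor gene that fell. WT fetal liver libraries held 13.7, 6.39 and 10.6 CPM and ETV6-RUNX1 fetal liver libraries 2.44, 3.34 and 2.82 CPM. The ETV6-RUNX1 libraries were tightly grouped below all others of the series. The log2 fold change was -1.49 ± 0.31 (95% interval -2.16 to -0.82; adjusted p = 0.00172, limma), the mean falling from 10.2 ± 3.65 to 2.87 ± 0.453 CPM. In bone marrow Il1r1 measured 5.16, 11.4 and 8.99 CPM in WT and 8.54, 17.0 and 9.25 CPM in ETV6-RUNX1 libraries. These overlapped, and the log2 fold change of 0.40 ± 0.31 (95% interval -0.27 to 1.07) was not called (adjusted p = 0.388, limma). The interaction was -1.89 ± 0.44 (adjusted p = 0.0175, limma), a call that was lost with no filter on low genes (adjusted p = 0.0742, limma).

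**Figure D3:**
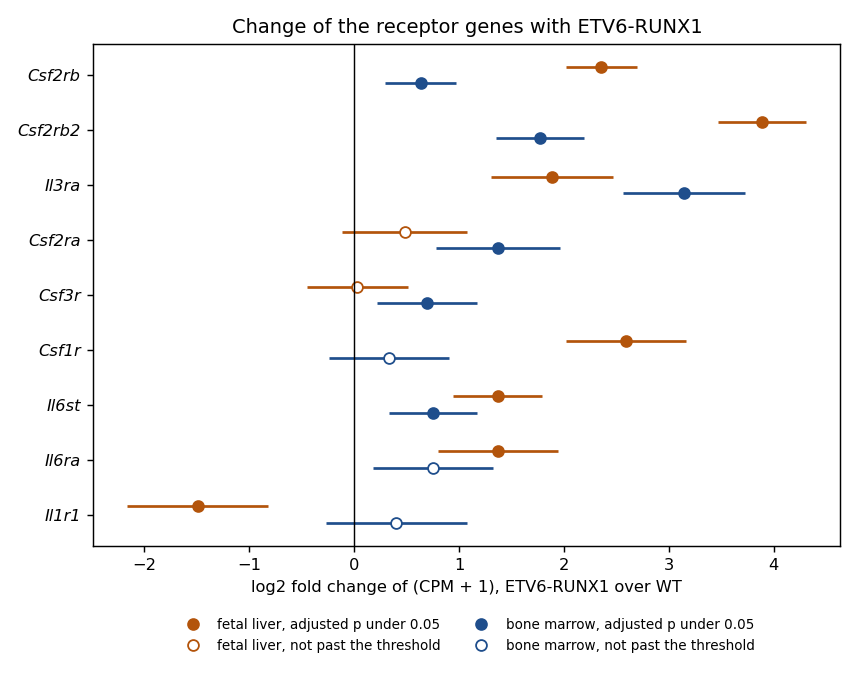
Log2 fold change of (CPM + 1), ETV6-RUNX1 over WT, for each receptor gene in fetal liver (brown) and bone marrow (blue), with 95% limma intervals, filled where the adjusted p was under 0.05. The beta chains and Csf1r lie further right in fetal liver, and Il1r1 is called to the left of 0 in fetal liver only, with an interaction of -1.89.

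Between the sources of WT cells no receptor gene changed by the test. None of the 9 was called between WT fetal liver and WT bone marrow by limma, where 11.1% of all tested genes were called. None had an unadjusted p under 0.05, and edgeR and DESeq2 also called 0 of them. The largest log2 difference among the 9, fetal liver minus bone marrow, was -0.46 ± 0.22 for Csf3r (95% interval -0.94 to 0.01, adjusted p = 0.213, limma). The interval for Il3ra ran from -0.15 to 1.01, so a modest difference in either gene was not detectable with 3 libraries a group.

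In ETV6-RUNX1 cells the sources differed for most of the receptors. A total of 4 genes were higher in fetal liver (Csf1r, Csf2rb, Csf2rb2 and Il6ra), against 10.4% of all tested genes, and 4 were lower (Csf3r, Il3ra, Csf2ra and Il1r1), against 18.2%. Csf2rb2 was 3.72-fold and Csf2rb 3.22-fold higher in fetal liver, with log2 differences of 1.88 ± 0.20 (adjusted p = 8.60e-06, limma) and 1.68 ± 0.16 (adjusted p = 3.20e-06, limma). Csf1r was 7.91-fold higher, a log2 difference of 2.27 ± 0.27 (adjusted p = 2.53e-05, limma). Csf3r had a log2 difference of -1.12 ± 0.22 (adjusted p = 0.00194, limma) and Il1r1 of -1.65 ± 0.31 (adjusted p = 0.00144, limma). The differences for Csf2ra, Il3ra and Il6ra were smaller against their error, -0.86 ± 0.28, -0.83 ± 0.27 and 0.85 ± 0.27. Their calls were lost in 9 of 21, 10 of 21 and 7 of 20 alternatives. Without ETV6-RUNX1 bone marrow replicate 2, or fetal liver replicate 1 or 2, the count of called genes was 5 in place of 8. Il6st, at 0.45 ± 0.20, was not called (adjusted p = 0.0985, limma), but was in 4 of 21 alternatives (median-of-ratios, quantile, edgeR and DESeq2), at adjusted p down to 0.00673.

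These shifts changed the order of the receptors. Per kb of exon, Csf3r and Csf2rb led in WT bone marrow (15.3 ± 3.66 and 14.0 ± 1.53 CPM per kb, SD, n = 3) and in WT fetal liver (11.2 and 13.8 CPM per kb), with overlapping libraries in each. Csf2rb2 and Csf2ra came next in both WT groups, at 2.41 to 2.88 CPM per kb on average, also overlapping each other. Il6st, Il1r1 and Il3ra followed at 0.773 to 1.6 CPM per kb, and Il6ra and Csf1r were lowest at 0.132 to 0.272 CPM per kb. In ETV6-RUNX1 fetal liver the order was Csf2rb (70.2 CPM per kb), Csf2rb2 (38.5), Csf3r (11.3) and Il3ra (5.11), with no overlap between neighbours. Below these, Csf2ra (3.74 CPM per kb) overlapped Il3ra above it and Il6st (3.35) below it, and then came Csf1r (1.74), Il6ra (0.883) and Il1r1 (0.450) without overlap. In ETV6-RUNX1 bone marrow Csf3r (24.7 CPM per kb) and Csf2rb (21.8) still led and overlapped, and Il3ra (9.81) stood beside Csf2rb2 (10.4) and above Csf2ra (6.93), each overlapping its neighbour.

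Across all 12 libraries, the genes whose log2 profiles were most like those of the receptors were named by Pearson's r, as a description over libraries that share 4 groups. For Csf2rb they included Itga6 (r = 0.983), and for Csf2rb2 they were Cd38 (0.989) and Epn2 (0.988). Cd86 (r = 0.986) and Mpeg1 (0.979) were nearest to Csf1r. Tnfrsf9 (r = 0.964) and BC018473 (0.963) were nearest to Il3ra, and Tnrc18 (0.978) and Lzts2 (0.971) to Csf2ra. Csf3r was nearest to Rhbdf1 (r = 0.955) and Limk1 (0.941), and Il1r1 to Cpa3 (0.941) and Dus3l (0.914). Hipk3 was among the nearest to both IL-6 receptor chains (r = 0.957 for Il6ra and 0.972 for Il6st), beside Ppp1r12a for Il6ra (0.959) and Ttyh2 for Il6st (0.985).

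The ligands of these receptors were mostly scarce in the same cells. An exception, named after its values were seen, was Il1b, which encodes a ligand of Il1r1. It averaged 32.0 ± 16.7 CPM in WT and 26.1 ± 14.6 CPM in ETV6-RUNX1 fetal liver, and 6.65 and 6.29 CPM in bone marrow. Il1b was not called between genotypes in either source, but was called higher in fetal liver than in bone marrow in both genotypes. Of 20 listed ligands 19 were found in the table and 10 were tested, and Csf3, Il3, Il5 and Il6 did not pass the filter. In fetal liver 5 ligands were higher and 1 lower with ETV6-RUNX1 (median log2 fold change 0.63), and in bone marrow 2 were higher and none lower (median 0.51). The count in bone marrow was 1 when any of 7 libraries was left out (each WT bone marrow replicate, WT fetal liver replicates 1 and 2, ETV6-RUNX1 bone marrow replicate 2 and ETV6-RUNX1 fetal liver replicate 1). These counts, and those of the lists that follow, stand beside 24.8% higher and 18.3% lower of all tested genes in fetal liver and 14.4% higher in bone marrow. Csf1, which encodes M-CSF, the ligand of Csf1r, averaged 2.02 ± 0.765 CPM in WT and 10.2 ± 5.71 CPM in ETV6-RUNX1 fetal liver (log2 fold change 1.75 ± 0.41, adjusted p = 0.0033, limma). Csf2, which encodes GM-CSF, was 0.0381, 0.0779 and 0.299 CPM in WT and 1.30, 4.67 and 3.84 CPM in ETV6-RUNX1 bone marrow, WT replicate 1 being under 3 reads. Its call in bone marrow (adjusted p = 0.039, limma) was lost in 10 of 20 alternatives. In fetal liver Csf2 was 0.0865, 0.284 and 0.124 CPM in WT and 2.27, 10.7 and 0.210 CPM in ETV6-RUNX1 libraries, which overlapped. It was called higher there too (adjusted p = 0.033, limma), a result named after its values were seen. Il27, an IL-12 family subunit whose receptor uses gp130, rose in both sources, by 3.25 ± 0.35 in fetal liver and 1.57 ± 0.35 in bone marrow on the log2 scale.

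Among 19 other cytokine receptor genes, 15 of them tested, 6 were higher and 1 lower in fetal liver (median 0.47) and 2 were higher and none lower in bone marrow (median -0.02), a share near that of all tested genes. Lifr, the LIF receptor chain that pairs with gp130, measured 7.24, 3.97 and 2.59 CPM in WT and 229, 276 and 239 CPM in ETV6-RUNX1 fetal liver libraries. In ETV6-RUNX1 bone marrow it measured 3.49, 31.5 and 2.26 CPM, replicate 2 alone being high. Its log2 fold change in fetal liver was 5.55 ± 0.64 (adjusted p = 1.3e-05, limma), and its interaction of 4.60 ± 0.91 was called (adjusted p = 0.00648, limma), but not with no filter on low genes (adjusted p = 0.0519). Osmr, the oncostatin M chain that also pairs with gp130, rose in bone marrow from 0.306 to 2.28 CPM (log2 fold change 1.33 ± 0.28, adjusted p = 0.00587, limma). It was also called higher in fetal liver, a result named after its values were seen, from 0.128 ± 0.118 to 1.27 ± 1.22 CPM (adjusted p = 0.0199, limma). The fetal liver call was lost in 3 of 20 alternatives, with no filter on low genes and without WT fetal liver replicate 1 or ETV6-RUNX1 fetal liver replicate 3. Flt3, a receptor of early lymphoid and myeloid progenitors, fell in fetal liver from 22.8 to 5.99 CPM (log2 fold change -1.75 ± 0.38).

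Downstream genes were higher on balance. Of 10 JAK and STAT genes, 8 were higher and none lower in fetal liver (median 0.95), and 5 were higher and none lower in bone marrow (median 0.61). The count in bone marrow was 3 without WT replicate 1 or ETV6-RUNX1 replicate 1 or 2. Stat2, which also serves interferon receptors, had the largest change of the list in each source, 4.10 ± 0.24 in fetal liver and 2.14 ± 0.24 in bone marrow on the log2 scale. Jak2, the kinase bound by the common beta chain, rose in fetal liver from 24.5 to 56.2 CPM (log2 fold change 1.18 ± 0.15). Of 13 negative regulators, 9 were higher and none lower in fetal liver (median 0.96), and 6 were higher and 1 lower in bone marrow (median 0.38), with 4 called without any one of the ETV6-RUNX1 bone marrow replicates. These included Socs2 in bone marrow (125 to 337 CPM, log2 fold change 1.42 ± 0.21) and Cblb and Sh2b3 in fetal liver (log2 fold changes 1.62 ± 0.18 and 1.18 ± 0.15). Dok2, an inhibitory adaptor, fell in bone marrow (log2 fold change -0.93 ± 0.19).

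Of 12 adaptors and kinases of the IL-1 receptor, 6 were higher and none lower in fetal liver (median 0.37), where Il1r1 itself was lower, and 2 were higher and none lower in bone marrow (median 0.18), a share near that of all tested genes. The fetal liver count was 3 without WT fetal liver replicate 2 or 3 or ETV6-RUNX1 fetal liver replicate 1. Leaving out ETV6-RUNX1 bone marrow replicate 2 gave a bone marrow count of 0, and leaving out any of 7 other libraries gave 1 (WT bone marrow replicates 1 and 3, WT fetal liver replicates 1 and 2, ETV6-RUNX1 bone marrow replicate 1 and ETV6-RUNX1 fetal liver replicates 1 and 2). Irak2 rose in both sources (log2 fold changes 2.15 ± 0.28 and 0.94 ± 0.28), the bone marrow call being lost in 6 of 21 alternatives, 3 of them without WT replicate 1, WT replicate 3 or ETV6-RUNX1 replicate 2. Of 15 other adaptors and kinases, 9 were higher and none lower in fetal liver (median 0.47). By limma none was called in bone marrow (median 0.25), where 3 had an unadjusted p under 0.05, edgeR called 0 and DESeq2 called 1, as did limma without ETV6-RUNX1 bone marrow replicate 3. Tyrobp, an adaptor of myeloid cells, rose in fetal liver by 2.17 ± 0.28 on the log2 scale, from 8.09 to 38.7 CPM. Of 4 genes for receptor shedding, 2 were higher in fetal liver (Adam10 and Rhbdf2, median 0.81) and 1 in bone marrow (Rhbdf2, median 0.70), or 2 without WT or ETV6-RUNX1 bone marrow replicate 3. Adam10, which encodes a protease, rose in fetal liver from 164 to 449 CPM (log2 fold change 1.48 ± 0.27). Of 11 myeloid transcription factor genes 6 were tested, of which 4 were higher in fetal liver (median 0.92) and 3 in bone marrow (median 0.63), with none lower. Spi1, which encodes PU.1, a known activator of Csf1r, Csf2ra and Csf3r, rose by 1.38 ± 0.27 in fetal liver and 1.37 ± 0.27 in bone marrow on the log2 scale.

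**Figure D4:**
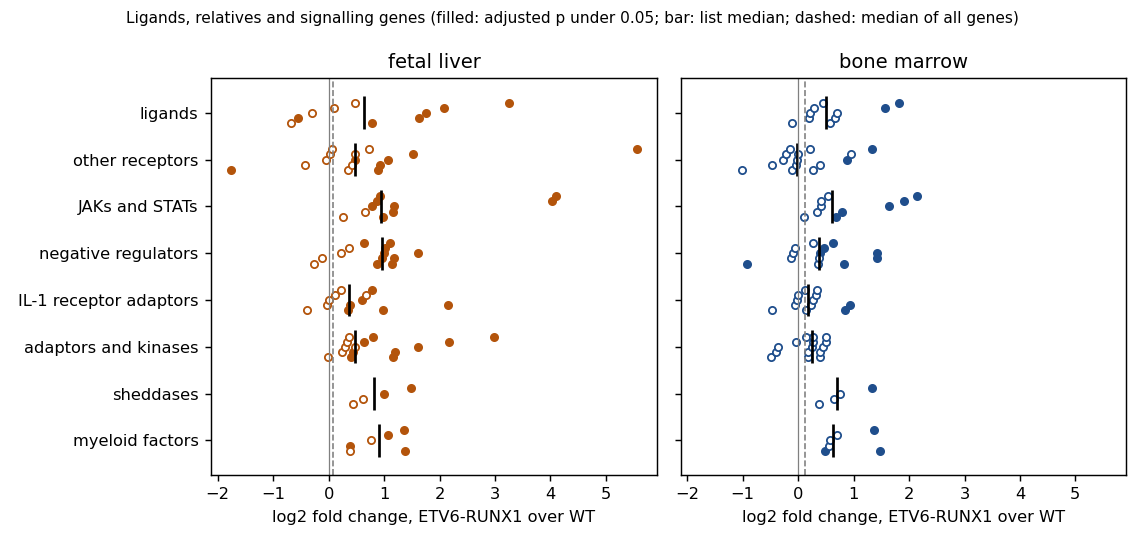
Log2 fold change, ETV6-RUNX1 over WT, of each tested gene in 8 lists of ligands, related receptors and signalling genes, in fetal liver (left) and bone marrow (right), filled where the adjusted p was under 0.05, with a bar at the list median and a dashed line at the median of all tested genes. The JAK and STAT list has 8 called genes in fetal liver and 5 in bone marrow, and the rightmost point in fetal liver is Lifr at 5.55.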

How the data were processed

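RNA of 12 cultured HSC samples was extracted with a single-cell kit and sequenced from a stranded total RNA library of low input, per the labels' protocols. The authors deposited 1 table of CPM values, whose upstream tools, per the submitters' processing notes, included STAR 2.5.1a, featureCounts 1.4.6-p5, Salmon 0.8.2, edgeR and limma with build GRCm38; which of them made the table, the annotation and the strand setting are not given in the sources used here. Whole reads were recovered from the CPM steps (100% of values within 0.01 of a whole number). The table had 40757 rows, 276 repeated gene identifiers being counted once. The genes tested reached 1 CPM in 3 or more libraries. They were fitted with limma 3.58.1 (R 4.3.3) on log2(CPM + 1), 1 mean per group and 8 residual degrees of freedom, with a trended prior. Alternatives were a pseudocount of 0.1, no filter, a mean of at least 5 CPM, median-of-ratios and quantile scaling, a replicate block, only the 6 libraries compared, edgeR 4.0.16 and DESeq2 1.42.0 on the recovered reads, and leaving out each library. The fit was tested on simulated data. Levels per kb used the exon union of GENCODE M21. The lowest count of a receptor gene in a library was 23 reads (Csf1r).

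The receptor genes and all gene lists were chosen with earlier results of these data known. The text names all 9 receptors, at most the 3 called genes with the largest change per list and genotype comparison, and the 2 genes nearest to each receptor by Pearson's r of log2(CPM + 1). A few genes that this rule names are not reported here. Marker genes, Il1b (named after its values were seen) and ratios between chains (added after seeing the data, with exact permutation tests) are given besides.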

Additional observations from a re-analysis of the deposited data

Results flagged for a closer look

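The genotype effect differed between fetal liver and bone marrow, by the limma interaction test, for 4 of the 9 receptor genes. Of these, 3 differed toward fetal liver, against 5.56% of all tested genes, and 1 toward bone marrow, against 3.62%. The difference, fetal liver minus bone marrow on the log2 scale, was 2.26 ± 0.38 for Csf1r (adjusted p = 0.00219, limma), 1.72 ± 0.22 for Csf2rb (adjusted p = 0.000338, limma) and 2.12 ± 0.28 for Csf2rb2 (adjusted p = 0.000361, limma). For Il1r1 it was -1.89 ± 0.44 (adjusted p = 0.0175, limma), with all 3 ETV6-RUNX1 fetal liver libraries below all 3 WT ones and the bone marrow groups overlapping.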

How the results depend on the processing

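Over 45 results (9 receptor genes in 5 comparisons) and 926 alternative values, 850 kept their direction and their side of the threshold, 43 lost a call, 10 gained one and 23 changed sign, none of the last being called. The 7 fetal liver calls held in each alternative that tested the gene, of which a mean of at least 5 CPM left out Csf1r and Il6ra, with 5 to 7 called over the alternatives. Leaving out 1 library gave 7 called genes in fetal liver each time, 3 to 7 in bone marrow (3 without ETV6-RUNX1 bone marrow replicate 1, against 6 with all libraries), 4 to 5 interactions, 0 between the WT sources and 5 to 8 between the ETV6-RUNX1 sources, where no filter on low genes gave 5 against 8; the cause was not tested. Fitting only the 6 bone marrow libraries called 4. Of 496 alternative counts for the other gene lists, 418 lay within 1.5 times of the count reported; in bone marrow edgeR called 3 JAK and STAT genes against 5 and 4 negative regulators against 7.

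Csf3r in fetal liver (0.03) became -0.0406 with median-of-ratios, -0.14 with quantile scaling, -0.0755 with edgeR and -0.0512 with DESeq2, and ranged from -0.12 to 0.26 over fits without 1 library (negative without WT replicate 2 or 3 or ETV6-RUNX1 replicate 2). Between the WT sources, Csf1r became -0.0483 with a pseudocount of 0.1, and Csf2rb became 0.0626 with median-of-ratios, 0.0255 with quantile, 0.0868 with edgeR and 0.0789 with DESeq2. Without 1 library, these WT differences ranged from -0.21 to 0.19 for Csf1r, -0.0681 to 0.18 for Csf2ra, -0.21 to 0.10 for Csf2rb, -0.0878 to 0.44 for Il6ra and -0.0452 to 0.51 for Il1r1, the last 2 negative without WT bone marrow replicate 1. The bone marrow difference in Il6ra per 100 Il6st (3.0) ranged from -0.321 without that library to 4.76.

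Median-of-ratios scaling moved the median of all genes from 0.13 to 0.01 in bone marrow, and quantile scaling from 0.08 to -0.10 in fetal liver. Same-numbered replicates did not deviate together (r from -0.44 to 0.39 over 18 pairs, 7 of them over 0.1), and the fits with a replicate block called 7, 6, 4, 0 and 7 receptor genes in the 5 comparisons.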

Other observations

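Markers of other lineages also differed between the groups, and are given as values. The 6 megakaryocyte markers summed to 3049 to 4501 CPM in WT and 7035 to 7647 CPM in ETV6-RUNX1 fetal liver, and to 1361 to 1813 CPM in WT and 464 to 2080 CPM in ETV6-RUNX1 bone marrow. Most of the fetal liver sum was Pf4 (means of 2472 and 4816 CPM). With ETV6-RUNX1 3 markers were called higher and 1 lower in fetal liver, where Gp9 went from 387 to 213 CPM, and 1 was called lower and none higher in bone marrow. The 6 erythroid markers summed to 675 to 938 CPM in WT and 1323 to 2060 CPM in ETV6-RUNX1 fetal liver, with 5 called higher. Most of that sum was Hbb-bt (means of 815 and 1611 CPM), and Klf1 went the other way, from 0.654 to 0.175 CPM. In bone marrow the 6 erythroid markers summed to 215 to 472 CPM in WT and 378 to 582 CPM in ETV6-RUNX1 libraries, with 1 called lower and none higher. The 6 dendritic cell markers summed to 15.7 to 30.8 CPM in WT fetal liver and 6.54 to 10.7 CPM in ETV6-RUNX1 fetal liver, and to at most 7.58 CPM in bone marrow. Flt3 made up nearly all of it in WT fetal liver (22.8 CPM on average, against 5.99 CPM with ETV6-RUNX1). Of the 2 dendritic cell markers tested, 1 was called higher and 1 lower in fetal liver. Xcr1 averaged 0.199 CPM in WT and 1.13 CPM in ETV6-RUNX1 fetal liver, and Itgax 0.0764 and 1.01 CPM. The 7 mast cell and basophil markers summed to 5.72 to 13.8 CPM and the 7 lymphoid markers to 0.374 to 1.90 CPM over all libraries. The 8 stromal and endothelial markers summed to 27.3 to 41.3 CPM. Of the 11 HSC markers, 9 were called higher with ETV6-RUNX1 in fetal liver and 8 in bone marrow, with none lower. These marker counts stand beside 24.8% higher and 18.3% lower of all tested genes in fetal liver. In bone marrow 14.4% were called higher, and 704 of 14271 lower.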
